A study of Homo sapiens with 4 samples.

Results

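The genes described here were 6 cardiac transcription factors (NKX2-5, HAND1, HAND2, TBX5, TBX20 and ISL1) and 4 genes of the sarcomere, the contractile unit of striated muscle (MYL7, TNNT2, MYH6 and ACTC1). They were found by symbol among 58365 rows of an RNA-seq table, and each of the 10 symbols had 1 row. The table holds FPKM, fragments scaled to transcript length and to the number of mapped fragments, for 4 libraries of H1, a line of human embryonic stem cells (hESCs), differentiated toward blood in steps. All cells received activin A and BMP4 for 2 days and VEGF and bFGF for 3 days. For a further 3 days VEGF and bFGF were continued either with DMSO, the vehicle (2 libraries, the DMSO group), or with SB431542, a small molecule that blocks the TGFβ type I receptors (2 libraries, the SB group), and all cells were collected at day 8. The study describes the sequenced cells as positive for the endothelial surface protein CD31, which the sample labels do not mention. No label says that the libraries of a group came from separate cultures, so the p-values below measure only the spread between these libraries, which may be technical.

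Heart muscle forms from mesoderm under a network of transcription factors, among them the homeobox protein NKX2-5, the basic helix-loop-helix proteins HAND1 and HAND2, the T-box proteins TBX5 and TBX20 and the LIM-homeobox protein ISL1. These factors appear in cardiac progenitors before the sarcomere is built, and several of them are also used by other lineages. Sarcomere genes encode the actin and myosin filaments and the troponins that make contraction calcium-dependent, and they mark cardiomyocytes as they differentiate. TGFβ, activin and Nodal signal through the type I receptors that SB431542 blocks, and these receptors phosphorylate SMAD2 and SMAD3.

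The stretches of 250 bases before the start sites of 5 of the genes are printed here because they set the gene that fell with SB431542 (ACTC1) and the other sarcomere gene with a CArG box (MYL7) beside the sarcomere gene that was not lower with it (MYH6), and likewise the paralogs HAND1 and HAND2. The sarcomere gene TNNT2 is not printed. It was also lower in both SB libraries, and its window has no CArG box. A link between motifs and changes was not tested. The sequences are RefSeq's on GRCh38.p14, in the direction of transcription, and capitals mark matches on either strand. These are a CArG box, which SRF binds, the zinc finger motif GATAA, the core promoter motif TATAAA, and the homeobox motif AAGTG of the NKX2 family. ACTC1 is shown for chr15:34795550-34795799, MYL7 for chr7:44141333-44141582, MYH6 for chr14:23408274-23408523, HAND1 for chr5:154478228-154478477 and HAND2 for chr4:173530230-173530479, all on the minus strand.
ACTC1: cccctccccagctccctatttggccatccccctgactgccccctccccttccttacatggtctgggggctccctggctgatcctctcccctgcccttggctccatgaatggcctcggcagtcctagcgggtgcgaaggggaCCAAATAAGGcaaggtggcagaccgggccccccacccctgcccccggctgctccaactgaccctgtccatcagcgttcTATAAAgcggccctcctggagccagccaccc
MYL7: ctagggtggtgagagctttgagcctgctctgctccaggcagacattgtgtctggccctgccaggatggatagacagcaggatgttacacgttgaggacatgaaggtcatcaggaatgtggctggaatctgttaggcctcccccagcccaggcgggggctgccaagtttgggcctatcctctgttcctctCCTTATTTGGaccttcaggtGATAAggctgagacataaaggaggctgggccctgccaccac
MYH6: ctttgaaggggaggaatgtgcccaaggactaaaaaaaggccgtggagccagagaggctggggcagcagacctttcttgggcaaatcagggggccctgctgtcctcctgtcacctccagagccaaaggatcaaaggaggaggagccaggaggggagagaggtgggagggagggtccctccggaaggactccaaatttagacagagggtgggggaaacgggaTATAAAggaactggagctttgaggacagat
HAND1: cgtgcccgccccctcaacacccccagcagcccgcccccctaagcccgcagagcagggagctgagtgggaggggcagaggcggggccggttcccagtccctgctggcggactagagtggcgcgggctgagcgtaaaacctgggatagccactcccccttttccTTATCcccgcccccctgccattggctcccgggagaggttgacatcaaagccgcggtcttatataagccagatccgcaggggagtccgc
HAND2: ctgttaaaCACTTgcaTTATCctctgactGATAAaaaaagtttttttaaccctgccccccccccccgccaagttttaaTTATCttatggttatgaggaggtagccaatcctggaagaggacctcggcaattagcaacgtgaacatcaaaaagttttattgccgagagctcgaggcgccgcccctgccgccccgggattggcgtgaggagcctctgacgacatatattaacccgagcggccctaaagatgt

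Counting the base before the start as -1, the CArG box of ACTC1 lay at -109 to -100 and that of MYL7 at -61 to -52. In windows that reach from 250 bases before to 50 bases after a start, a CArG box was found in 1.29% of 35116 RefSeq promoters, in 2 of the 4 sarcomere genes and in 0 of the 5 factors with an entry (NKX2-5 is without one, and the first listed start of each gene was used). TATAAA was present in ACTC1 at -31 to -26 and in MYH6 at -30 to -25, against 11.5% of all windows, and in 0 of the 5 factors. GATAA was found in 22.7% of all windows, and among the first listed starts in HAND1 (1 match), HAND2 (3 matches), ISL1 (2 matches), MYL7 and TNNT2 (1 match each). AAGTG (43.1% of windows) was found among the first listed starts in HAND2 alone, where it overlaps a CANNTG, the E-box of basic helix-loop-helix factors (68.7% of windows). CAGAC, the SMAD motif (45.3% of windows), was found in all 4 sarcomere genes and in 2 of the 5 factors. The T-box motif GTGTGA (4214 of the 35116 windows) and the MEF2 site (2.99%) were found at 0 of the 9 first listed starts. Another listed start of TBX5, which is the upstream end of its row, has a MEF2 site at -31 to -22. The same TBX5 window has GATAA at -105 to -101. A further listed start of ACTC1 has AAGTG at -65 to -61. These matches are descriptions of the letters in the windows, and no binding was measured.

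Depth was judged from the table itself. From single-exon genes, whose low values step by what 1 fragment is worth, the libraries were estimated to hold between 19700000 and 26000000 fragments, so that 1 fragment in a transcript of 1000 bases was worth between 0.0538 and 0.0711 FPKM. All 10 endothelial markers were above 1 FPKM in each library, with summed levels of 1749 and 1566 FPKM with DMSO and 1588 and 1453 FPKM with SB431542. Cardiomyocyte genes were unevenly present. TNNT2 stayed under 1 FPKM in all 4 libraries, the ventricular light chain MYL2 was listed at 0 in all 4, and the natriuretic peptide gene NPPA did not exceed 0.0711 FPKM, while cardiac troponin I (TNNI3) lay between 2.56 and 5.38 FPKM and ACTC1 near 10.8 FPKM on average with DMSO. The genes are called cardiac by what they are known for, and no cell type was assigned from these bulk data.

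ACTC1 was the 1 gene of the 10 that fell with SB431542 at an adjusted p under 0.05, as 0.107% of tested genes did. In 9 of the 10 both SB libraries were below both DMSO libraries, against 16.0% of expressed rows (those above 0 in at least 1 library), with MYH6 as the exception. Among the factors NKX2-5 and HAND1 were lower by about 2 on the log2 scale, while HAND2 differed by -0.14. Differences are SB minus DMSO of log2(FPKM + 1), which understates the change of genes near or below 1 FPKM, and were tested with limma over the 14909 genes whose mean reached 1 FPKM in at least 1 group. In bulk RNA, fewer cells that express a gene and less of its RNA per cell cannot be told apart.

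NKX2-5 (ENSG00000183072.9, chr5:173232109-173235357, minus strand), a homeobox factor of the heart field, was the most abundant of the 10 genes with DMSO. Its level was 45.3 and 21.9 FPKM in DMSO replicates 1 and 2 and 10.4 and 5.23 FPKM in SB replicates 1 and 2. Both SB libraries were below both DMSO libraries, yet replicate 1 was about as far above replicate 2 within each group (2.07-fold with DMSO and 1.99-fold with SB). The mean of 33.6 ± 16.5 FPKM with DMSO (SD, n = 2, as for all means below) stood against 7.82 ± 3.66 FPKM with SB, a log2 difference of -1.95 (SE 0.46, limma unadjusted p 0.00872, adjusted p 0.274). Between libraries of the same number the DMSO level was 4.35-fold and 4.18-fold that of SB.

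HAND1 (ENSG00000113196.2, chr5:154474972-154478264, minus strand), a factor of the first heart field that also acts in extraembryonic mesoderm, stood at 11.6 and 11.1 FPKM with DMSO and at 2.34 and 1.98 FPKM with SB431542. The DMSO libraries were close to each other, as were the SB libraries, and the groups were far apart. The log2 difference was -1.97 (SE 0.17, limma unadjusted p 0.000116, adjusted p 0.0646), which missed the threshold, and within numbers the DMSO level was 4.96-fold and 5.57-fold that of SB. HAND1 passed the threshold after quantile normalization (limma adjusted p 0.0481) but was further from it with no filter on low values (limma adjusted p 0.30). When a single library was left out, its log2 difference ran from -2.05 (without SB replicate 1) to -1.88 (without SB replicate 2).

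HAND2 (ENSG00000164107.8, chr4:173524969-173530229, minus strand), the paralog that acts in the second heart field and in limb and neural crest derivatives, was measured at 12.3 and 11.2 FPKM with DMSO and at 11.0 and 10.1 FPKM with SB431542. All 4 libraries lay within a narrow range, although the groups did not overlap. The log2 difference was -0.14 (SE 0.17, limma adjusted p 0.893). HAND1 and HAND2 were thus at about the same level with DMSO, and with SB431542 HAND2 averaged 10.6 ± 0.66 FPKM and HAND1 2.16 ± 0.25 FPKM. HAND2-AS1, the antisense neighbor of HAND2, was at 2.97 and 2.21 FPKM with DMSO and 2.81 and 1.61 FPKM with SB, and because strand use in counting is not given, reads of this pair cannot be told apart.

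TBX20 (ENSG00000164532.10, chr7:35202430-35254147, minus strand), a T-box factor of the early heart tube, was at 3.23 and 2.92 FPKM with DMSO and 1.40 and 1.16 FPKM with SB431542, without overlap. The log2 difference was -0.84 (SE 0.20, limma unadjusted p 0.00883, adjusted p 0.274). ISL1 (ENSG00000016082.14, chr5:51383391-51394738, plus strand), which marks second heart field progenitors, was at 1.51 and 1.65 FPKM with DMSO and 0.631 and 0.938 FPKM with SB431542, a log2 difference of -0.53 (SE 0.22, limma adjusted p 0.548). Its SB libraries were further from each other than its DMSO libraries, and within numbers the DMSO level was 2.39-fold and 1.75-fold that of SB. TBX5 (ENSG00000089225.19, chr12:114353931-114408442, minus strand), a T-box factor of the first heart field and forelimb, did not reach the filter and was not tested. It was listed at 0.268 and 0.265 FPKM with DMSO and at 0 and 0.020 FPKM with SB431542. Depending on its transcript, that is about 4.8 to 23 fragments in a DMSO library and up to 1.8 fragments in SB replicate 2.

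**Figure D1:**
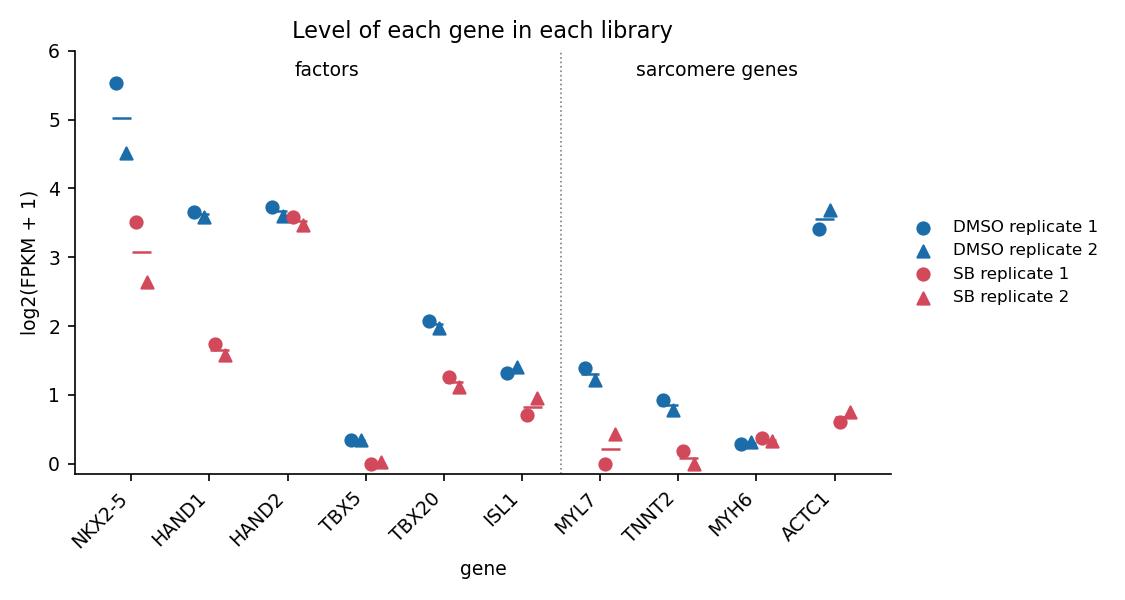
Level of the 6 factors and 4 sarcomere genes as log2(FPKM + 1) on the vertical axis, with 1 point per library (blue DMSO, red SB, circles replicate 1, triangles replicate 2) and a short line at each group mean. ACTC1 and HAND1 show groups that are far apart with close replicates, NKX2-5 shows replicates that differ about as much in each group, HAND2 and MYH6 show nearly level groups, and TBX5, MYH6 and TNNT2 lie below 1 in all 4 libraries.

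Of the sarcomere genes, ACTC1 (ENSG00000159251.6, chr15:34788096-34796139, minus strand), the actin of cardiac muscle that is also made in early skeletal and smooth muscle, was the only one above 2 FPKM in any library. It stood at 9.62 and 11.9 FPKM with DMSO and at 0.519 and 0.677 FPKM with SB431542, an estimated 800 and 950 fragments against 35 and 60. Every SB library was far below every DMSO library. ACTC1 fell by 2.87 on the log2 scale (SE 0.20, limma adjusted p 0.0365), and the DMSO level was 18.6-fold and 17.6-fold that of SB within numbers. Among the 14909 tested genes it ranked 21 by the size of the fall. It lost the call when any single library was left out (adjusted p 0.13 without DMSO replicate 1, 0.0984 without DMSO replicate 2, 0.171 without SB replicate 1 and 0.175 without SB replicate 2) and when no filter on low values was used (adjusted p 0.30).

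Other actins share most of their coding sequence with ACTC1, so its reads could be split between them. The skeletal actin ACTA1 did not exceed 0.379 FPKM, and the smooth muscle actin ACTA2 was at 46.0 and 51.8 FPKM with DMSO and 32.4 and 36.4 FPKM with SB431542. The cytoplasmic actin ACTB was higher, at 1436 ± 4.25 FPKM with DMSO and 2182 ± 3.75 FPKM with SB431542 (log2 difference 0.60, limma adjusted p 0.27).

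MYL7 (ENSG00000106631.8, chr7:44138864-44141332, minus strand), the atrial regulatory light chain that is made throughout the early heart tube, was listed at 1.64 and 1.32 FPKM with DMSO and at 0 and 0.352 FPKM with SB431542. The groups did not overlap, and the log2 difference was -1.09 (SE 0.27, limma unadjusted p 0.0106, adjusted p 0.294), -1.40 in replicate 1 and -0.78 in replicate 2. TNNT2 (ENSG00000118194.18, chr1:201359008-201377762, minus strand), cardiac troponin T and a standard cardiomyocyte marker, was listed at 0.899 and 0.717 FPKM with DMSO and at 0.134 and 0 FPKM with SB431542, and was not tested. Few reads lay behind both genes: about 1.0 to 21 fragments per DMSO library for MYL7 and 1.0 to 23 for TNNT2, depending on the transcript, and at most 4.6 and 2.7 in an SB library.

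MYH6 (ENSG00000197616.11, chr14:23381990-23408277, minus strand), the alpha myosin heavy chain of the heart, was listed at 0.219 and 0.241 FPKM with DMSO and at 0.296 and 0.252 FPKM with SB431542. Here both SB libraries were slightly above both DMSO libraries, by 0.05 on the log2 scale, from an estimated 30 to 37 fragments per library over a long transcript. It was under the filter and was not tested. Its near-identical neighbor MYH7 did not exceed 0.107 FPKM, and the microRNA gene MIR208A inside MYH6 was listed at 0 in all 4 libraries.

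Over the whole table, 16 of 14909 tested genes (0.107%) fell past the adjusted threshold, ACTC1 among them. At an unadjusted p under 0.05, 5 were lower (NKX2-5, HAND1, TBX20, MYL7 and ACTC1), against 5.16% of tested genes, and 4 had a log2 difference of -1 or less (NKX2-5, HAND1, MYL7 and ACTC1), against 2.16% of tested genes. The 9 genes whose SB libraries lay below their DMSO libraries compare with 16.0% of the 29447 rows above 0 in at least 1 library and with 16.0% of tested genes. In all, 7 of the 10 genes passed the filter, 5 factors and 2 sarcomere genes, and ISL1, MYL7 and ACTC1 passed it through the DMSO group alone. The median difference over all 10 genes was -0.80, beside a median of 0.04 over all tested genes.

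**Figure D2:**
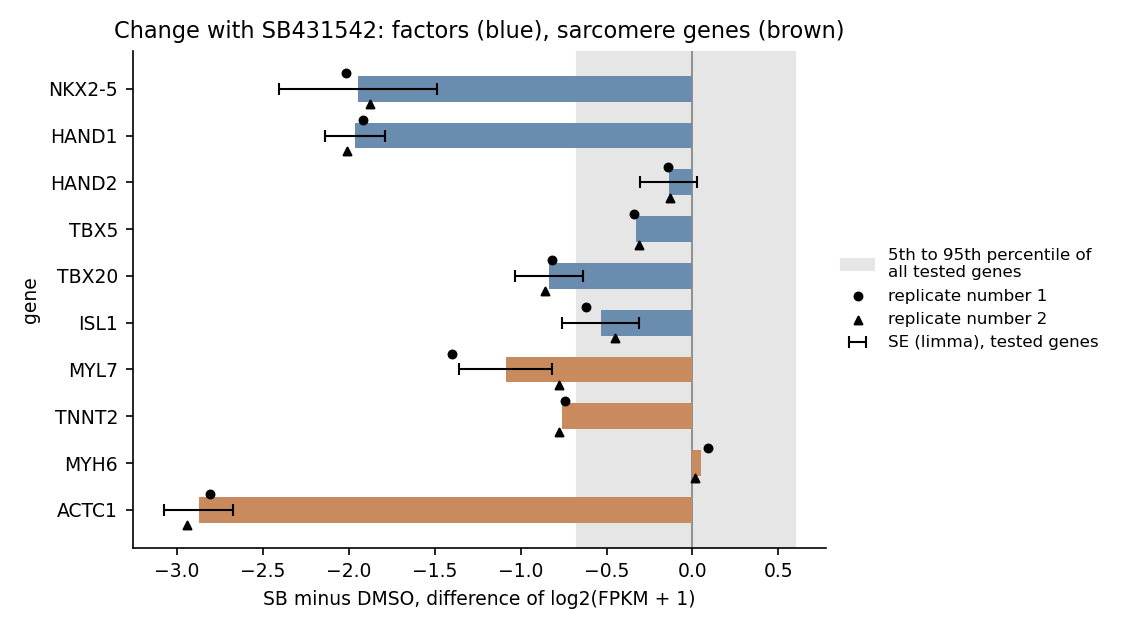
Difference of log2(FPKM + 1), SB minus DMSO, for each gene (bars, factors blue and sarcomere genes brown), with limma's SE where the gene was tested, the difference within replicate number 1 (circles) and number 2 (triangles), and the 5th to 95th percentile of single tested genes (-0.67 to 0.59) in gray. NKX2-5, HAND1, TBX20, MYL7, TNNT2 and ACTC1 lie below the gray band, ISL1, TBX5, HAND2 and MYH6 lie inside it, and both numbers give the same sign for each gene.

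The contrast of the classes rested on their levels in each library. The 6 factors had a mean log2(FPKM + 1) of 2.78 and 2.57 with DMSO and of 1.80 and 1.63 with SB431542. The 4 sarcomere genes had a mean of 1.504 and 1.498 with DMSO and of 0.29 and 0.38 with SB431542. Factors were above sarcomere genes in each of the 4 libraries, and both classes were lower with SB431542. The median difference was -0.69 over the factors (-0.72 and -0.65 within numbers) and -0.93 over the sarcomere genes (-1.07 and -0.78 within numbers).

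How far the change of the sarcomere genes differed from that of the factors depended on the pseudocount. On the log2(FPKM + 1) scale the mean of the sarcomere genes less that of the factors was -1.27 and -1.07 with DMSO and -1.51 and -1.25 with SB431542, so that SB replicate 2 lay within the DMSO range. The difference between groups, -0.21, was about the size of the gap between replicates of a group (0.20 with DMSO and 0.26 with SB, replicate 2 above replicate 1 in each), and within numbers it was -0.24 and -0.18. With a pseudocount of 0.1, which gives low values more weight, the same quantity was -1.67 and -1.50 with DMSO and -2.69 and -2.28 with SB431542, so that the groups did not overlap, and the difference between groups was -0.90. That value rests in part on MYL7, TNNT2 and TBX5, each listed at 0 in an SB library. On the log2(FPKM + 1) scale, leaving out 1 library at a time moved the difference between -0.34 (without SB replicate 2) and -0.082 (without SB replicate 1), with -0.31 without DMSO replicate 1 and -0.11 without DMSO replicate 2. No p is given for these class scores, since the genes were chosen with earlier results known.

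**Figure D3:**
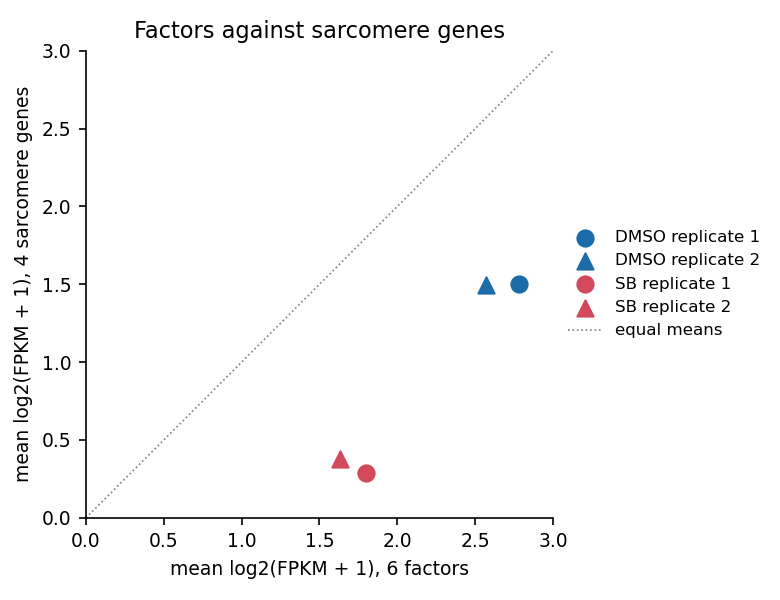
Mean log2(FPKM + 1) of the 4 sarcomere genes (vertical axis) against that of the 6 factors (horizontal axis), 1 point per library, with a dotted line where both means are equal. All 4 libraries lie below the line, and the SB libraries are lower on both axes than the DMSO libraries.

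In linear units, the makeup of each class differed between groups. The factors summed to 74.2 and 48.9 FPKM with DMSO and 25.8 and 19.4 FPKM with SB431542, and the sarcomere genes to 12.4 and 14.2 FPKM with DMSO and 0.949 and 1.28 FPKM with SB431542. NKX2-5 made up 61.0% and 44.7% of the factor sum with DMSO and 40.3% and 26.9% with SB431542, whereas HAND2 made up 16.6% and 22.8% with DMSO and, above NKX2-5, 42.7% and 52.0% with SB431542. ACTC1 made up 77.8% and 83.9% of the sarcomere sum with DMSO and 54.7% and 52.9% with SB431542.

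The order of the levels also differed between groups. By mean FPKM with DMSO it was NKX2-5, HAND2, HAND1, ACTC1, TBX20, ISL1, MYL7, TNNT2, TBX5 and MYH6. HAND2, HAND1 and ACTC1 overlapped between their libraries, as did ISL1 and MYL7, so these neighbors were not separated beyond their spread. With SB431542 the order was HAND2, NKX2-5, HAND1, TBX20, ISL1, ACTC1, MYH6, MYL7, TNNT2 and TBX5, in which HAND2 and NKX2-5 overlapped, as did ISL1 and ACTC1, MYH6 and MYL7, MYL7 and TNNT2, and TNNT2 and TBX5.

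Other cardiac factors, a list of 20 genes, were more often lower than higher with SB431542. Over all 20 the SB libraries lay below the DMSO libraries for 11 genes and above for 2, where 16.0% and 16.6% of expressed rows did so, and the median difference was -0.26. Of 14 tested, 0 passed limma's adjusted threshold, and at an unadjusted p under 0.05 there were 7 lower and 1 higher, against 5.16% and 4.80% of tested genes. Among the 7, TBX1 (means of 1.23 FPKM with DMSO and 0.057 FPKM with SB) passed the filter through the DMSO group alone. The 4 most abundant were named by rule. MEF2C, a MADS-box factor of heart, vessels and blood, was higher with SB431542, at 39.9 and 42.1 FPKM with DMSO and 77.8 and 70.5 FPKM with SB (log2 difference 0.84, limma adjusted p 0.205). MEF2A and MEF2D, of the same family, differed by -0.27 and 0.20, and HOPX, a homeodomain-only protein of cardiac progenitors, by -0.57.

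Genes of this list chosen after their values were seen include GATA4, a zinc finger partner of NKX2-5, at 35.5 and 22.9 FPKM with DMSO and 9.68 and 6.05 FPKM with SB (log2 difference -1.77, limma adjusted p 0.187). GATA4 had the same shape as NKX2-5, higher in replicate 1 than in replicate 2 of each group. HEY2, a Notch target of ventricular and arterial cells, was at 21.2 and 22.2 FPKM with DMSO and 6.07 and 6.17 FPKM with SB (log2 difference -1.67, limma adjusted p 0.0697), with close replicates like HAND1. The T-box factor TBX3 stayed near its DMSO level (20.7 and 16.7 FPKM against 20.3 and 17.8 FPKM), as did SRF, the factor that binds CArG boxes (20.1 and 15.7 FPKM against 22.4 and 17.9 FPKM). MYOCD, the cofactor of SRF in heart and smooth muscle, did not exceed 0.146 FPKM.

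Of the other sarcomere genes, a list of 21, 13 stayed under 1 FPKM in each library. Only 6 of the 21 were tested, 0 of these passed limma's adjusted threshold, and 2 were lower at an unadjusted p under 0.05 (5.16% of tested genes). The SB libraries lay below the DMSO libraries for 9 genes and above for 4 (16.0% and 16.6% of expressed rows), with a median difference of -0.10. The light chain MYL4, made in embryonic muscle and in erythroid cells, was the highest and differed upward, at 61.5 and 79.5 FPKM with DMSO and 91.8 and 111 FPKM with SB (log2 difference 0.52, limma adjusted p 0.52). TPM1, a tropomyosin also found outside muscle, was at 66.1 and 71.7 FPKM with DMSO and 36.8 and 35.5 FPKM with SB (log2 difference -0.91, limma adjusted p 0.17). TNNI3 was at 3.35 and 2.56 FPKM with DMSO and 3.45 and 5.38 FPKM with SB (log2 difference 0.44, limma adjusted p 0.719). Chosen after its values were seen, TNNC1, the troponin C of heart and slow muscle, was at 2.52 and 1.90 FPKM with DMSO and 0.593 and 0.716 FPKM with SB (log2 difference -0.95, limma adjusted p 0.275). TNNC1 is 1 of the 2 genes lower at an unadjusted p under 0.05, and it passed the filter through the DMSO group alone.

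Calcium handling and natriuretic genes were mostly low. Of 12 listed, 11 stayed under 1 FPKM in each library. The SB libraries lay below the DMSO libraries for 4 genes and above for 2 (16.0% and 16.6% of expressed rows). The median difference was -0.03, which a pseudocount of 1 holds near 0 at such levels (-0.24 with a pseudocount of 0.1). The 1 tested was ATP2A2, a calcium pump of the endoplasmic reticulum used in most tissues, at 47.1 and 54.6 FPKM with DMSO and 58.4 and 67.1 FPKM with SB (log2 difference 0.30, limma adjusted p 0.726). NPPB, the B-type natriuretic peptide gene, was listed at 0.293 and 0.942 FPKM with DMSO and at 0 and 0.0939 FPKM with SB. The calcium channel gene CACNA1C was at 0.925 and 0.731 FPKM with DMSO and 0.271 and 0.254 FPKM with SB.

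**Figure D4:**
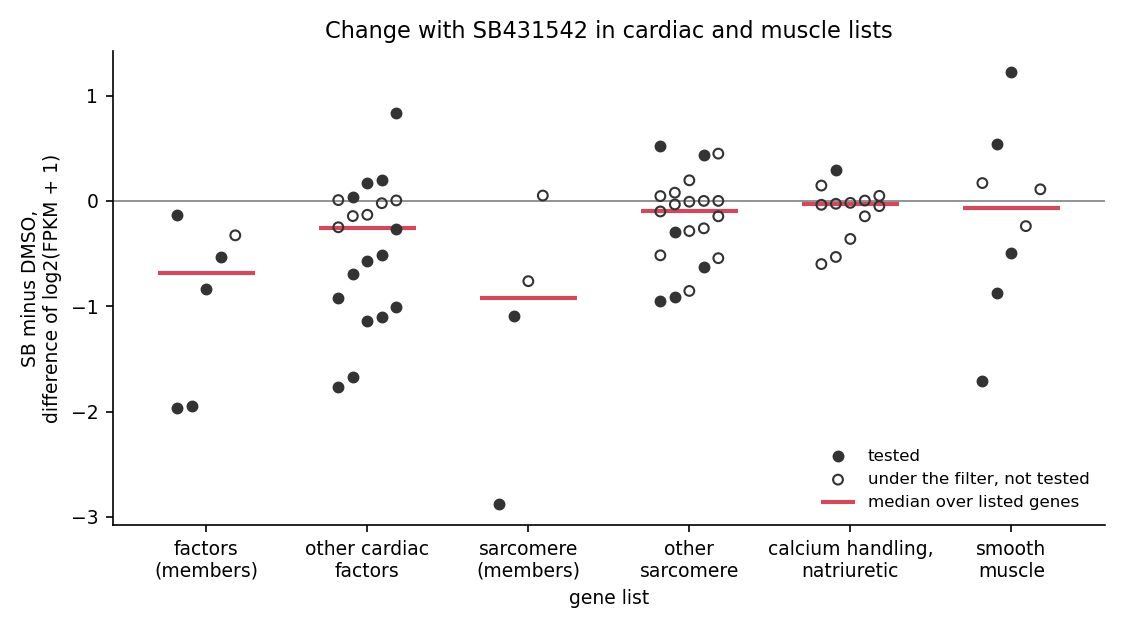
Difference of log2(FPKM + 1), SB minus DMSO (vertical axis), for each gene of the 2 member classes, of 2 further cardiac lists, of calcium handling and natriuretic genes and of smooth muscle genes, filled where tested and open where under the filter, with the median over all listed genes as a red line. The member medians of -0.69 and -0.93 lie below those of the other lists shown, which run from -0.26 to -0.03, and ACTC1 is the lowest point. Members and lists were chosen with earlier results of these data known. The pseudocount of 1 holds the differences of genes at low levels near 0.

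Markers of other cell types moved with the same comparison. All 6 endoderm and liver genes were lower in both SB libraries (16.0% of expressed rows), with sums of 277 and 312 FPKM with DMSO and 27.4 and 30.5 FPKM with SB. Of them 4 (the serum protein genes AFP, TTR, APOA1 and APOA2) fell at limma adjusted p between 0.0201 and 0.0365, where 0.107% of tested genes passed the threshold downward. Only these 4 reached 1 FPKM in each library. Of 8 mesenchymal genes 5 were lower without overlap (16.0% of expressed rows), with sums of 609 and 450 FPKM with DMSO and 392 and 288 FPKM with SB. The collagen gene COL1A1 was at 107 and 78.5 FPKM with DMSO and 17.1 and 14.8 FPKM with SB (log2 difference -2.46, limma adjusted p 0.0646). This was the largest fall of the 8. The most abundant of the 8, THY1, was at 367 and 257 FPKM with DMSO and 310 and 214 FPKM with SB. The THY1 groups overlapped (log2 difference -0.25, limma adjusted p 0.878). The median difference over the 8 was -0.54. Of 8 hematopoietic genes 7 were higher without overlap (16.6% of expressed rows), and the sums over all 8 were 950 and 985 FPKM with DMSO and 982 and 995 FPKM with SB, with the globin gene HBE1 lower in both SB libraries. Endothelial markers had a median difference of -0.14. The part of these lists in the values of the cardiac genes was not tested.

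**Figure D5:**
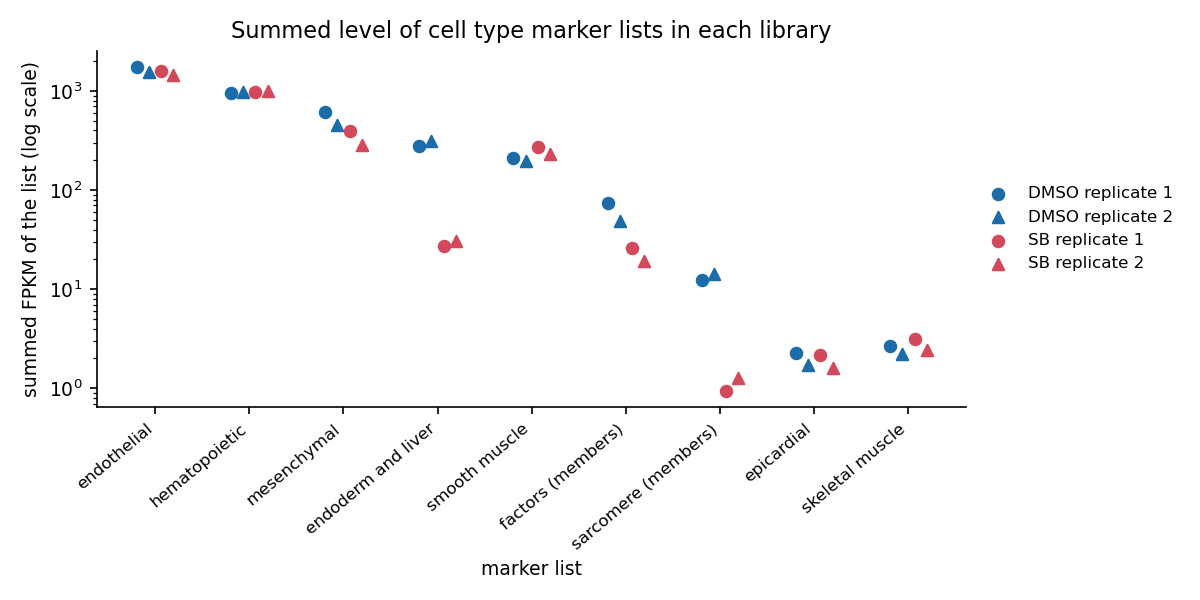
Summed FPKM of each marker list (vertical axis, log scale) in each library, blue for DMSO and red for SB. Endoderm and liver genes and the 4 sarcomere genes show the widest gaps between groups, the 6 factors show a smaller one, and endothelial and hematopoietic sums lie close together. HBE1 is the largest part of the hematopoietic sum and was lower with SB (614 and 676 FPKM with DMSO, 460 and 524 FPKM with SB). The other 7 of the 8 hematopoietic genes were higher with SB without overlap (16.6% of expressed rows).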

How the data were processed

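RNA from 4 libraries (2 DMSO, 2 SB) was sequenced with an Illumina TruSeq kit by a service company. The authors deposited FPKM values, normalized by transcript length and mapped fragments. The submitters' processing notes name BWA, Bowtie, RSEM and hg19 without their roles, whereas 95.5% of the identifiers in the table occur with the same version in GENCODE 29, with the same position in 99.97% of these. Coordinates are therefore given on GRCh38, counted from 1. Among the members, the row of ACTC1 alone is outside this match. It spans 34788096 to 34796139, against 34788095 to 34795726 in GENCODE 29. The fragment numbers of ACTC1 rest on its GENCODE 29 transcript of 3694 bases, which may not be the length behind its FPKM.

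Values were taken as log2(FPKM + 1), and genes with a mean of at least 1 FPKM in at least 1 group were tested with limma 3.58.1 in R 4.3.3 (empirical Bayes with a trend, group as the only term, two-sided, Benjamini-Hochberg over all 14909 genes, threshold 0.05). The fit was run on simulated data with large planted changes, which checks the code and not its error rates in these libraries. With 2 libraries a group, exact permutation reaches no p below 0.333, and none was run. Fragment numbers were estimated from depth and coding transcript lengths, and 95.8% to 97.3% of low values of single-exon genes came out whole within 0.1. An exact 0 can be a failed estimate, so such genes are described as listed at 0.

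All 10 members are named, with up to 4 genes of highest mean FPKM per further list, any listed gene past the threshold, and overlapping or near-identical genes. Of the genes named by this rule, 2 are not reported here. Members and lists were chosen with earlier results of these data known. Alternatives were a pseudocount of 0.1, no filter, at least 5 FPKM in 2 libraries, quantile and upper-quartile scaling, no trend, the replicate number as a block and leaving out each library.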

Additional observations from a re-analysis of the deposited data

How the results depend on the processing

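Over 98 values of the 10 members under up to 11 alternatives, 0 changed sign. Under each of the 7 alternatives that change values or libraries, 9 members were lower with SB without overlap (16.0% of expressed rows in the deposited values). Since the groups of all 10 members did not overlap to begin with, only quantile and upper-quartile scaling could have altered either count. The other alternatives therefore add no support to these counts. The number of genes called, 20, became 0 with no filter (2739 at an unadjusted p under 0.05, of 29447 tested) and ranged from 0 (without DMSO replicate 1, with 1168 at an unadjusted p under 0.05) to 14 (without DMSO replicate 2), with 10 without SB replicate 1 and 9 without SB replicate 2. The lone library left in a group was assumed to vary like the other group. The number of members called, 1, became 0 with no filter, 0 to 0 on leaving out each library, and 2 with quantile normalization (HAND1 added). With the replicate number as a block, 1564 genes and 4 members (ACTC1, HAND1, NKX2-5 and TBX20, adjusted p 0.0036, 0.00547, 0.0036 and 0.0458) passed. The numbers are shared by label only, and the deviations of DMSO and SB libraries of the same number correlated at 0.53 over tested genes. A pseudocount of 0.1 moved the median of the factors from -0.69 to -1.47, of the sarcomere genes from -0.93 to -2.72, of their difference in means from -0.21 to -0.90, of the other factors from -0.26 to -0.57, of the other sarcomere genes from -0.10 to -0.26 and of the calcium and natriuretic genes from -0.03 to -0.24, since it gives low values more weight. On leaving out each library, the difference in means ranged from -0.34 to -0.082, the median of the other factors from -0.28 (without SB replicate 1) to -0.14 (without DMSO replicate 1), of the other sarcomere genes from -0.079 to -0.035 (without DMSO replicate 1) and of the calcium and natriuretic genes from -0.044 to -0.00097 (without DMSO replicate 2). Apart from the weight that the pseudocount gives to low values, the causes of these shifts, that of the block among them, were not tested. Depth limits TBX5, MYL7 and TNNT2, which rested on at most 23 fragments in any library.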

Other observations

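Smooth muscle genes differed in both directions. Of 8 listed, 5 were tested, 0 passed limma's adjusted threshold, and at an unadjusted p under 0.05 there were 3 lower and 1 higher (5.16% and 4.80% of tested genes), with a median difference of -0.06. TAGLN, the actin-binding protein transgelin, was at 17.8 and 17.4 FPKM with DMSO and 5.23 and 4.22 FPKM with SB431542 (log2 difference -1.70, limma adjusted p 0.0798). MYLK, the myosin light chain kinase, was at 12.4 and 13.1 FPKM with DMSO and 27.1 and 35.4 FPKM with SB431542 (log2 difference 1.22, limma adjusted p 0.151). SMTN, the cytoskeletal protein smoothelin, was higher in both SB libraries (132 and 113 FPKM with DMSO, 205 and 153 FPKM with SB, limma adjusted p 0.516).

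Epicardial and skeletal muscle markers were low. The 4 epicardial genes (WT1, TCF21, UPK3B and ALDH1A2) summed to 2.27 and 1.73 FPKM with DMSO and 2.15 and 1.61 FPKM with SB431542. The 5 skeletal muscle genes summed to 2.69 and 2.24 FPKM with DMSO and 3.14 and 2.45 FPKM with SB431542, with MYOD1 and MYL1 listed at 0 in all 4 libraries.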
